A study of Mus musculus with 12 samples.

Results

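The genes described here encode growth factors that mast cells can make and secrete: the colony-stimulating factors Csf1 and Csf2, the platelet-derived factor Pdgfa, the vascular factors Vegfa and Vegfb, Tgfb1, the IL6-type cytokines Lif and Osm, the epidermal growth factor relative Areg, and the matrix cytokine Spp1. All probe sets whose annotation held a single gene symbol, and that symbol 1 of these 10, were taken. They were 15 probe sets of 8 genes, out of 45101 probe sets and 18193 named genes in the table. Areg and Spp1 had no such probe set and were not analysed here. Probe sets annotated to several symbols were left out, whichever genes they named. Every one of the 15 was among the 27183 probe sets kept by the filter on dim signals. Csf2 passed that filter through the IL3+SCF arrays alone, so its test below is a description.

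The series addressed how stem cell factor (SCF), the ligand of the receptor KIT, shapes mast cells. Mast cells were grown from femur bone marrow of C57BL/6 mice. One group of 6 samples was cultured for 4 to 6 weeks with recombinant mouse IL3 at 30 ng/ml, and the other 6 received the same IL3 together with recombinant mouse SCF, for which the labels give 100 ng/ml unless otherwise stated. The labels used here give no age or sex of the mice and name no stimulation through the IgE receptor. Culture purity is given in the labels as above 99%, by toluidine blue and by surface FceRIa and KIT.

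RNA was measured on Affymetrix arrays, and values are deposited signals in linear units. The labels do not say whether samples of a group came from separate mice or cultures, so the spread behind every p-value is that between these samples and may be technical. In bulk RNA, fewer cells of a type and less RNA per cell cannot be told apart. With SCF, 4692 of the 27183 kept probe sets were higher (17.3%) and 3709 were lower (13.6%) at an adjusted p below 0.05 (limma, Benjamini-Hochberg over all kept probe sets). The median log2 change over all kept probe sets was 0.04. Array medians lay between 150 and 202, and all fold changes are differences of log2(signal + 16), IL3+SCF minus IL3.

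Mast cells are tissue-resident secretory cells, best known for releasing histamine and proteases from granules, and they also secrete newly made cytokines and growth factors. Colony-stimulating factors drive the growth and survival of myeloid cells, PDGF and VEGF act on mesenchymal and endothelial cells, and TGF-beta1 is secreted in a latent form that must be activated outside the cell. LIF and oncostatin M signal through receptors that share the chain gp130, encoded by Il6st, and activate JAK kinases and STAT3.

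The members fell into 2 directions. Csf1, Csf2 and Pdgfa were higher with SCF by 0.93 to 1.69 log2 units, with no overlap between the groups on any of their 7 probe sets. Lif and Osm were lower by 0.65 and 0.74 log2 units at their brightest probe sets. Vegfa, Vegfb and Tgfb1 changed by 0.51 log2 units or less in either direction, with overlapping groups. Of the 15 probe sets, 9 rose, 4 fell and 2 did not pass, so 13 were called, where 30.9% of all kept probe sets were called. The groups did not overlap at 8 of the 15, against 16.6% of all kept probe sets, and 6 of the 15 were called with a change of at least 1 log2 unit, against 4.12%. Csf2 is counted in the 9, the 13, the 8 and the 6, although it passed the filter through the IL3+SCF arrays alone. The 6 were 4 probe sets of Csf1, 1 of Csf2 and 1 of Pdgfa, and probe sets of the same gene are not independent.

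**Figure D1:**
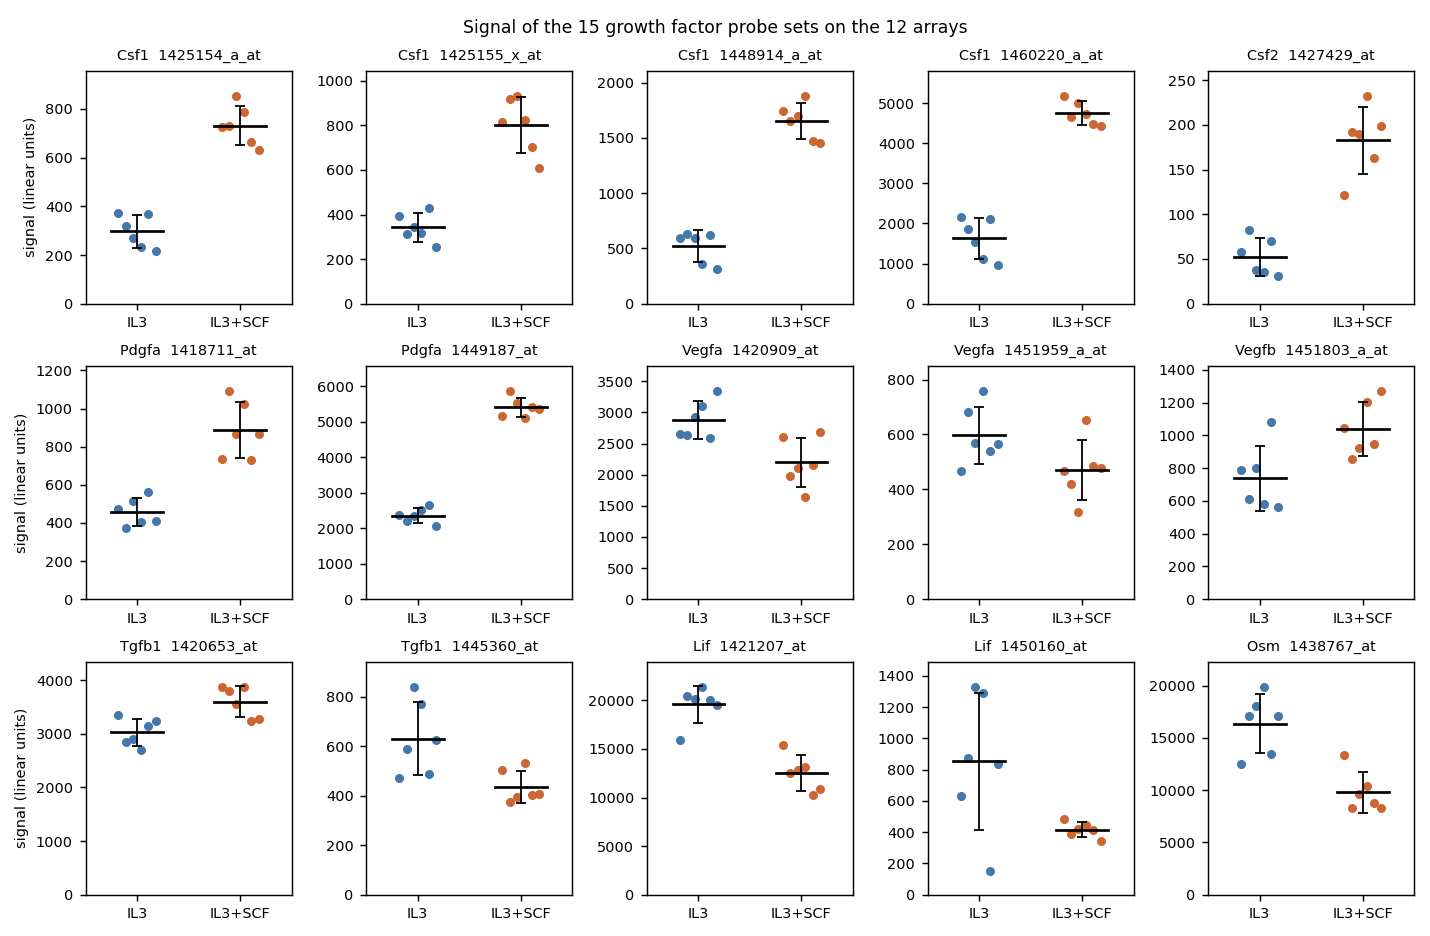
Signal in linear units (y axis of each panel, starting at 0) of the 15 growth factor probe sets on the 6 IL3 arrays (blue) and the 6 IL3+SCF arrays (orange); each point is 1 array, and bars show the mean ± SD. The groups are separate in all panels of Csf1, Csf2 and Pdgfa and in the panel of Lif 1421207_at, and overlap in the other 7.

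Csf1 encodes macrophage colony-stimulating factor, the ligand of CSF1R. The brightest of its 4 probe sets, 1460220_a_at, had signals of 976, 1698 and 2165 (lowest, median and highest) on the IL3 arrays and 4436, 4691 and 5185 on the IL3+SCF arrays. Every IL3+SCF array was above every IL3 array, and IL3 replicates 4 and 6 were the lowest of all. The change was 1.60 ± 0.18 log2 units (SE, n = 6 and 6; limma adjusted p = 4.16e-05).

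The 3 other Csf1 probe sets also rose without overlap. Probe set 1448914_a_at went from 312, 596 and 632 to 1456, 1675 and 1884, a change of 1.69 ± 0.17 (limma adjusted p = 1.86e-05). Probe set 1425154_a_at went from 216, 295 and 373 to 631, 727 and 855, a change of 1.28 ± 0.14 (limma adjusted p = 2.32e-05). For 1425155_x_at the values were 254, 330 and 431 against 607, 821 and 934, a change of 1.19 ± 0.13 (limma adjusted p = 3.50e-05). The 4 estimates were not all equal: the change at 1425154_a_at was smaller than that at 1460220_a_at by 0.32 log2 units (exact permutation test, two-sided, p = 0.00216, which is the lower limit for 6 against 6 arrays; 0.00758 adjusted over the 7 pairs of probe sets of one gene). Differences from the brightest probe set of -0.40 at 1425155_x_at and 0.09 at 1448914_a_at did not pass in the same exact test (adjusted p = 0.0505 and 0.406).

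Csf2 encodes GM-CSF, which supports granulocytes and macrophages, and lies next to Il3 on chromosome 11 in RefSeq. Its single probe set, 1427429_at, gave 31.4, 47.5 and 82.2 on the IL3 arrays and 121, 191 and 233 on the IL3+SCF arrays. The IL3 values were all dim, meaning at or below the 40th percentile of their array, and none of the IL3+SCF values were. Against the 40th percentile of each IL3 array, the signal with SCF was at least 2.00-fold higher. The fitted change was 1.57 ± 0.20 (limma adjusted p = 8.33e-05), and it depends on the constant added before the log: it was 1.85 with 1 and 1.09 with 64. Since the IL3 signals of Csf2 were dim, the difference between the changes of Csf1 and Csf2 is set by that constant: it was 0.02 with 16, -0.24 with 1 and 0.48 with 64, and in an exact permutation test (two-sided, adjusted over the 4 pairs of related members) it passed with 64 alone (adjusted p = 0.896 with 16 and 0.0173 with 64).

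The promoter windows of the members that separated the groups are shown so that the start region of each can be read beside its change. Each is the 250 bases before a RefSeq gene start on GRCm38.p6, written 5′ to 3′ on the gene's strand. Both strands were searched for 6 motifs, with overlaps allowed, and capitals mark the matches. The motifs were the TATA box (TATAAA, in 12.4% of all 32851 promoter windows of this length), the GC box (GGGCGG, 32.7%), the AP-1 site (TGANTCA, 6.75%), a STAT site (TTCNNNGAA, 7.02%), and the E-box forms CACGTG (6.02%) and CATGTG (12.3%). The table held 12 windows for 9 of the 10 members and none for Osm. Csf1 lies on the minus strand at chr3:107760470-107760719, Csf2 on the minus strand at chr11:54249900-54250149, the 2 windows of Pdgfa on the minus strand at chr5:138994282-138994531 and chr5:138994945-138995194, and Lif on the plus strand at chr11:4257318-4257567.
Csf1: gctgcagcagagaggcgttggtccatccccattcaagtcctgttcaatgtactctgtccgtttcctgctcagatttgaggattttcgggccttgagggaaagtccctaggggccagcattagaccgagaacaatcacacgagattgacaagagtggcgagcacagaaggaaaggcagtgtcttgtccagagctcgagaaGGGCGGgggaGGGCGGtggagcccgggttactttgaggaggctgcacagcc
Csf2: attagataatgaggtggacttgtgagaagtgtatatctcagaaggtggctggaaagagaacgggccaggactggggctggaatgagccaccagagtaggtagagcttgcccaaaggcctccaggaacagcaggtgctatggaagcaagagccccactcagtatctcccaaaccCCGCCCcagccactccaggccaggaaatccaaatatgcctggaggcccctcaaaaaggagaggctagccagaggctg
Pdgfa, window 1: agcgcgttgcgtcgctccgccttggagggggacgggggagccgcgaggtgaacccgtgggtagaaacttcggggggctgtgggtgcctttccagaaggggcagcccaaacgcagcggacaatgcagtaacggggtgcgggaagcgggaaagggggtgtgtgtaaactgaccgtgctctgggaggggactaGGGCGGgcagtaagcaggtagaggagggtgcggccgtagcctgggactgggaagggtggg
Pdgfa, window 2: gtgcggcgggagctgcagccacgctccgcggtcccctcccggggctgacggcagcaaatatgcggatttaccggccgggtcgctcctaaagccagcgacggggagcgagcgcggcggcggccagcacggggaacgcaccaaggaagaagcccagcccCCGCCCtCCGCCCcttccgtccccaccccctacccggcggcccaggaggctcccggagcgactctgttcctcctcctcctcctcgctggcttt
Lif: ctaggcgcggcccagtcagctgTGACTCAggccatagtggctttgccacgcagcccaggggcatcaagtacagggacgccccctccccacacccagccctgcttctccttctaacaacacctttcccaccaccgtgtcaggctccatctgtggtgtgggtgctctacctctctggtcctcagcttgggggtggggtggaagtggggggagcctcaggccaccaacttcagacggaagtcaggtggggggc
In the Csf1 window the capitals are 2 GC boxes, whose first bases lie 51 and 41 bases before the start. In the Csf2 window they are 1 GC box in reverse orientation at 77, in the first Pdgfa window 1 GC box at 60, and in the second 2 reversed GC boxes at 93 and 86. The Lif window holds no GC box of these letters and 1 AP-1 match, TGACTCA, at 228. A match describes the letters of the window and is no measurement of binding.

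Pdgfa encodes the A chain of platelet-derived growth factor, a mitogen of fibroblasts and smooth muscle cells. Its brighter probe set, 1449187_at, read 2062, 2360 and 2648 on the IL3 arrays and 5116, 5386 and 5868 on the IL3+SCF arrays. The groups were far apart relative to their spread, with SDs of 208 and 272. The rise was 1.19 ± 0.07 log2 units (limma adjusted p = 1.66e-07), the smallest adjusted p among the members. The dimmer probe set 1418711_at moved from 371, 443 and 560 to 731, 866 and 1092, a rise of 0.93 ± 0.12 (limma adjusted p = 1.31e-04), again without overlap. The difference between the 2 probe sets, -0.26, did not pass (exact permutation test, two-sided, adjusted p = 0.0833).

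**Figure D2:**
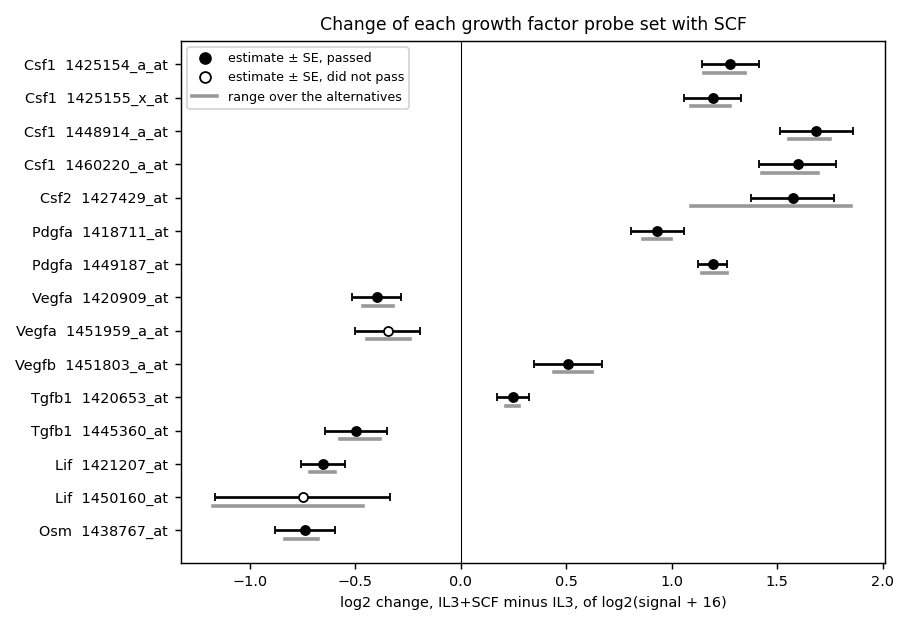
Log2 change (IL3+SCF minus IL3, x axis) of each growth factor probe set, with its SE (black bar), whether it passed at an adjusted p of 0.05 (filled) or not (open), and the range of the estimate over the alternative settings (grey). The estimates run from -0.75 (Lif 1450160_at, open) to 1.69 (Csf1 1448914_a_at), and no grey range crosses 0.

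Vegfa, the main angiogenic factor of its family, and Vegfb, its relative that binds FLT1, moved in opposite directions. Vegfa 1420909_at read 2594, 2786 and 3342 on the IL3 arrays against 1640, 2130 and 2689 on the IL3+SCF arrays. The groups overlapped, and the fall was 0.40 ± 0.12 log2 units (a change of -0.40; limma adjusted p = 0.0212). The call was lost without IL3 replicates 3 and 6 together, at -0.34 (limma adjusted p = 0.0962). The second Vegfa probe set, 1451959_a_at, read 466, 568 and 758 against 317, 473 and 651. Its change of -0.35 ± 0.15 did not pass (limma adjusted p = 0.110) but passed at 0.0343 without IL3+SCF replicate 4.

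Vegfb 1451803_a_at read 565, 702 and 1084 on the IL3 arrays and 853, 995 and 1269 on the IL3+SCF arrays. IL3 replicate 5, at 1084, was above 4 of the 6 IL3+SCF arrays, while the other IL3 arrays were all below them. The rise was 0.51 ± 0.16 (limma adjusted p = 0.0288). It was called in 23 of 37 alternative settings, and without IL3 replicates 3 and 6 the change was 0.46 (limma adjusted p = 0.0880). The change of Vegfa was lower than that of Vegfb by 0.91 log2 units on the same arrays (exact permutation test, two-sided, p = 0.00433, adjusted p = 0.00866).

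Tgfb1 encodes TGF-beta1, and its 2 probe sets changed in opposite directions. The brighter, 1420653_at, read 2706, 3018 and 3359 on the IL3 arrays and 3229, 3670 and 3878 on the IL3+SCF arrays, a rise of 0.25 ± 0.07 (limma adjusted p = 0.0242). The dimmer, 1445360_at, read 473, 607 and 840 against 375, 405 and 531, a change of -0.50 ± 0.15 (limma adjusted p = 0.0215). Both pairs of groups overlapped. The disagreement of -0.74 log2 units between the probe sets passed an exact permutation test (two-sided, p = 0.00216; adjusted p = 0.00758), so no single direction can be given for the gene. Both calls depended on the setting: 1420653_at was called in 21 of 37 alternative settings, with adjusted p = 0.144 when each array was centred on its median, and 1445360_at lost its call without IL3 replicates 3 and 6 (-0.38; limma adjusted p = 0.0901). The rise of Pdgfa exceeded that of the brighter Tgfb1 probe set by 0.95 log2 units (exact permutation test, two-sided, p = 0.00216; adjusted p = 0.00866).

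Lif and Osm encode leukemia inhibitory factor and oncostatin M, and are adjacent on chromosome 11 in RefSeq. Lif 1421207_at read 15928, 20097 and 21399 on the IL3 arrays and 10281, 12658 and 15391 on the IL3+SCF arrays. The groups did not overlap, although IL3 replicate 1 (15928) and IL3+SCF replicate 1 (15391) came close to each other. The change was -0.65 ± 0.10 (limma adjusted p = 4.50e-04). The second Lif probe set, 1450160_at, read 149, 857 and 1330 on the IL3 arrays, where replicate 5 had the 149, and 346, 418 and 484 on the IL3+SCF arrays. Its change of -0.75 ± 0.41 did not pass (limma adjusted p = 0.197). Without IL3 replicate 5 it was -1.17 (limma adjusted p = 4.62e-04), and the 2 probe sets then differed by -0.53 log2 units, where they differed by -0.10 on all arrays (exact permutation test, two-sided, adjusted p = 0.0152 and 0.924).

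Osm 1438767_at read 12499, 17089 and 19895 on the IL3 arrays and 8281, 9197 and 13378 on the IL3+SCF arrays. A single pair of arrays made the groups overlap: IL3+SCF replicate 1, at 13378, was above IL3 replicate 1, at 12499. The change was -0.74 ± 0.14 (limma adjusted p = 0.00172), and without IL3+SCF replicate 1 it was -0.83 (limma adjusted p = 4.47e-04). The changes of Lif and Osm differed by 0.09 log2 units (exact permutation test, two-sided, adjusted p = 0.456).

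The receptor chains Lifr and Il6st were also lower with SCF. Lifr, the LIF receptor chain, read 264, 502 and 1027 on the IL3 arrays and 56.6, 70.3 and 90.0 on the IL3+SCF arrays, of which 4 were dim. Its change was -2.61 ± 0.27 (limma over 11435 genes, adjusted p = 1.64e-05), with no overlap. Il6st, named after its values were seen because it is the shared chain gp130, read 762, 1361 and 2088 against 507, 619 and 804. Its change was -1.02 ± 0.20 (limma adjusted p = 0.00157), and its 3 probe sets gave -1.01 to -1.02. Osmr, the chain specific to oncostatin M, was dim on all 12 arrays.

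**Figure D3:**
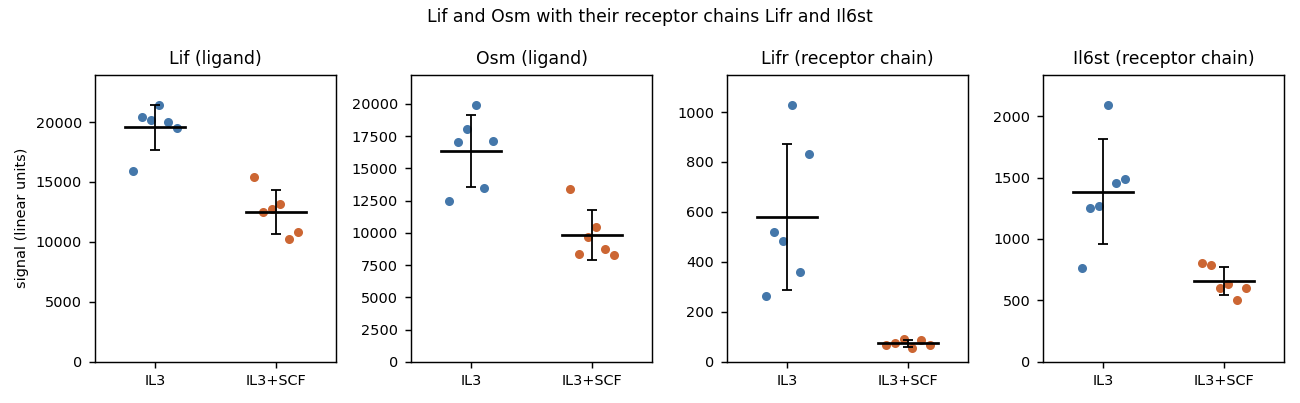
Signal in linear units (y axes from 0) of Lif, Osm and the receptor chains Lifr and Il6st on the 6 IL3 (blue) and 6 IL3+SCF (orange) arrays, with mean ± SD. The mean of Lifr goes from 581 to 73.6 and that of Il6st from 1385 to 656; Lif and Lifr do not overlap between groups, Osm and Il6st do.

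Within groups, Lif and Osm varied together. After subtraction of the group means, their deviations over the 12 arrays had a Pearson r of 0.82. It was 0.80 without IL3 replicate 1 and IL3+SCF replicate 5, the 2 arrays farthest from the median deviation of Lif. IL3+SCF replicate 1 stayed in, and how far r rests on that array was not tested. Arrays share their RNA sample and scaling, and no p is given. On IL3+SCF replicate 1, Osm was 0.47 and Lif 0.31 log2 units above the group mean, and on IL3 replicate 1 they were 0.37 and 0.29 below it (-0.37 and -0.29). The 3 genes most like Osm by this measure, over the brightest probe sets of 11435 genes, were Egr2 (r = 0.99), Csrnp1 (0.97) and Zfp36 (0.97). Without the 2 arrays where Osm deviated most, these were 0.97, 0.96 and 0.94. All 3 were also lower with SCF, by -1.73 for Egr2, -1.12 for Csrnp1 and -2.45 for Zfp36 (limma adjusted p = 0.00475, 0.00135 and 0.00106).

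**Figure D4:**
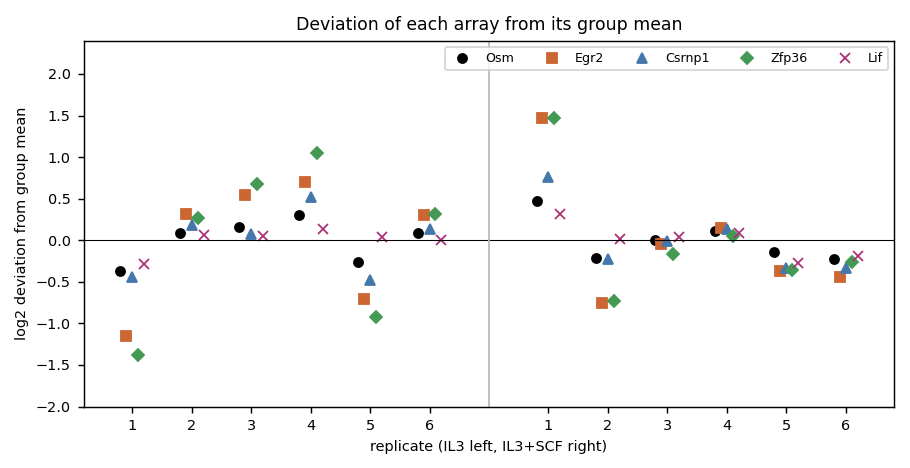
Deviation in log2 units (y axis) of Osm, Lif and the 3 genes most like Osm from their group mean, for each replicate of IL3 (left) and IL3+SCF (right). IL3 replicates 1 and 5 are low and IL3+SCF replicate 1 is high for Osm, Egr2, Csrnp1 and Zfp36.

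The genes most like Lif were Pim3 (r = 0.94), Per1 (0.94) and Ccdc115 (0.91), and Pim3 and Per1 were lower with SCF by -1.12 and -1.82. Csf1 was most like Glis2 (0.97), BC051142 (0.95) and Fam126a (0.94), and Csf2 most like Pxdc1 (0.93), Traf1 (0.91) and Plac8 (0.90). Csf2 was dim on all IL3 arrays, so every correlation of Csf2 given here rests in part on readings near background. Likeness within groups did not carry over to the change in every case: Plac8 had a change of -4.63, while Csf2 was higher. The log2 values of Plac8 on the IL3+SCF arrays were low, at 5.94 to 6.83, so the size of its change depends on the constant added before the log. For Pdgfa the leading genes were Dleu2 (0.91), Stat5b (0.89) and Bloc1s5 (0.85), the last at 0.58 without the 2 arrays where Pdgfa deviated most. Vegfa was most like Tmem267 (0.90), Usp54 (0.90) and Rcn2 (0.89), Vegfb most like Slc25a23 (0.92), Mab21l1 (0.91) and Apex2 (0.89), and Tgfb1 most like Tfe3 (0.94), Cars2 (0.90) and Spi1 (0.89). Without the 2 arrays farthest from the member's median deviation, these were 0.78 to 0.81 for Vegfa, 0.78 to 0.85 for Vegfb and 0.84 to 0.92 for Tgfb1. All genes named here were picked as the highest of 11435, so a high r is partly set by that choice. Among the members themselves, Csf1 and Csf2 had an r of 0.64, and Csf2 and Vegfa one of -0.68 (0.55 and -0.51 without 2 arrays).

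Of the receptors of the factors, 18 of 27 listed genes were tested, of which 5 rose, 5 fell and 8 did not pass, with a median change of 0.03. Over all 11435 genes tested by their brightest probe set, 35.4% were called, 18.9% higher and 16.6% lower, with a median of 0.02. Nrp1, a co-receptor of VEGF and semaphorins, had the largest rise: it read 174, 450 and 667 on the IL3 arrays and 4560, 5236 and 5946 on the IL3+SCF arrays, a change of 3.68 ± 0.25 (limma adjusted p = 3.77e-07). Its other 3 probe sets changed by 2.20 to 3.97. Eng, the TGF-beta co-receptor endoglin, rose by 0.70 ± 0.15 (limma adjusted p = 0.00325), while its second probe set (0.38) did not pass. Pdgfrb, a PDGF receptor, read 139, 227 and 277 against a median of 27.5 and a highest value of 112, a change of -2.30 ± 0.30 (limma adjusted p = 9.19e-05), and was dim on 5 IL3+SCF arrays. Its other probe set changed by -4.67 (limma over probe sets, adjusted p = 4.70e-09). Pdgfrb is also in the list of stromal markers.

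Several main receptors of the members did not pass or were dim. The GM-CSF receptor chains Csf2ra and Csf2rb had changes of 0.01 and -0.01, and the TGF-beta receptors Tgfbr1 and Tgfbr2 of 0.03 and 0.04. Csf1r, the receptor of macrophage colony-stimulating factor, was dim on 10 of the 12 arrays, Kdr, a VEGF receptor, also on 10, and Pdgfra on all 12.

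Of the genes for activation, shedding and storage of growth factors, 11 of 21 were tested, of which 5 rose and 1 fell, with a median of 0.28. Plau, the plasminogen activator urokinase, read 2651, 3432 and 3551 against 6937, 8744 and 9749, a change of 1.40 ± 0.10 (limma adjusted p = 4.87e-07). Rhbdf2, which carries the sheddase ADAM17 to the surface, rose by 0.95 ± 0.16 (limma adjusted p = 5.40e-04), and Adam17 itself by 0.30 (limma adjusted p = 7.32e-04). The member that fell was Ltbp3, a latent TGF-beta binding protein, at -0.23 ± 0.08 (limma adjusted p = 0.0412), a call lost under 26 alternative settings. The other Ltbp3 probe sets, at -0.19 to 0.04, did not pass.

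Among related growth factors, 11 of 29 were tested, with 2 rises, 3 falls and a median of -0.08. Tgfa, a ligand of the EGF receptor like Areg, read 41.8, 68.5 and 78.4, dim on all IL3 arrays, against 219, 249 and 296, and was at least 2.76-fold higher with SCF (means 64.2 and 255; limma adjusted p = 6.89e-07). Like Csf2 it passed the filter through the IL3+SCF arrays alone, so its p and its place among the 2 rises are a description. Vegfc, the lymphatic relative of Vegfa, went from 4335, 4837 and 5173 to 7136, 7584 and 8990, a change of 0.69 ± 0.07 (limma adjusted p = 1.37e-05), with 0.76 and 0.93 at its other probe sets. Igf1 (-0.97 ± 0.17) and Hgf (-0.65 ± 0.13) fell (limma adjusted p = 8.52e-04 and 0.00160), while the second Igf1 probe set (-0.58) did not pass. Il6, whose receptor also uses gp130, had a change of -0.13 that did not pass (limma adjusted p = 0.135).

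**Figure D5:**
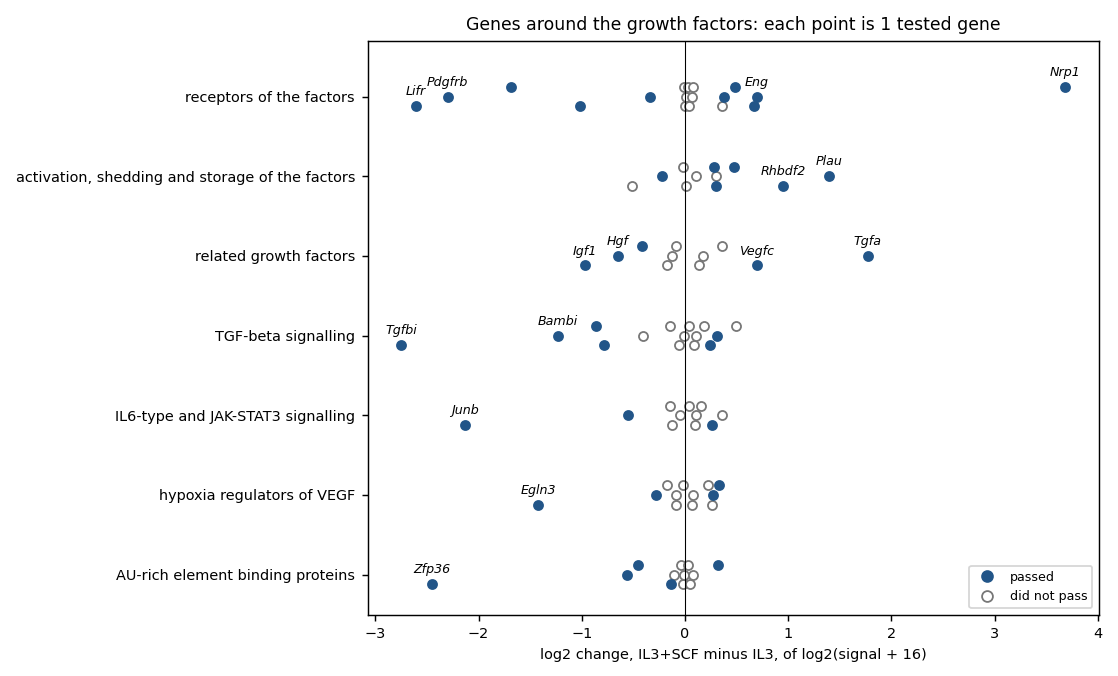
Log2 change (IL3+SCF minus IL3, x axis) of each tested gene, by its brightest probe set, in the 7 lists of genes around the growth factors; filled points passed at an adjusted p of 0.05. Nrp1 lies farthest to the right (3.68); the positions of Tgfbi and Tgfa, each dim on all arrays of 1 group, depend on the constant added before the log, and points lie on both sides of 0 in every list.

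In TGF-beta signalling, 15 of 17 genes were tested, of which 2 rose and 4 fell (median -0.01). Tgfbi, a secreted matrix protein induced by TGF-beta, read 177, 326 and 538 on the IL3 arrays and was dim on all IL3+SCF arrays, which makes it at least 3.33-fold lower (means 339 and 33.8; limma adjusted p = 5.63e-06). It passed the filter through the IL3 arrays alone, so its p and its place among the 4 falls are a description. Bambi, a decoy receptor of the pathway, had a change of -1.23 ± 0.17 (limma adjusted p = 1.04e-04). Bambi was dim on 3 IL3+SCF arrays, and its change ran from -1.37 to -0.94 over the alternative settings. The rises were small: Ski, a repressor of SMAD proteins, at 0.31 ± 0.06, and Smurf2, a ubiquitin ligase of the pathway, at 0.24 ± 0.08, whose call was lost under 17 settings.

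In the IL6-type and JAK-STAT3 list, 11 of 12 genes were tested, with 1 rise and 2 falls (median 0.04). Junb, an AP-1 subunit gene, read 2574, 5147 and 6769 against 733, 917 and 2041, a change of -2.13 ± 0.29 (limma adjusted p = 1.14e-04). Stat3 changed by -0.55 ± 0.05 (limma adjusted p = 3.56e-06), and of its other 3 probe sets those at -0.62 and -0.91 passed and that at -0.06 did not. Pias3, an inhibitor of STAT3, rose by 0.26 ± 0.06 (limma adjusted p = 0.00430), while its second probe set (0.13) did not pass.

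Of the hypoxia regulators of VEGF and other genes of the hypoxia response, 12 of 14 were tested, with 2 rises and 2 falls (median 0.02). Hif1a, the oxygen-sensitive regulator of Vegfa, had a change of -0.09 that did not pass. Vhl, whose product marks HIF proteins for degradation, rose by 0.27 ± 0.05, and Ndrg1 by 0.33 ± 0.09. Slc2a1, a glucose transporter, changed by -0.28 ± 0.06, and Egln3, a HIF prolyl hydroxylase, by -1.42 ± 0.47 with a call lost under 20 settings. Egln3 was dim on 4 IL3+SCF arrays, its groups overlapped, and its second probe set (-1.01) did not pass.

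The last list held proteins that bind RNA, many of them at AU-rich elements, which are common in cytokine messages. All 12 were tested, with 1 rise and 4 falls (median -0.03). Zfp36, which promotes decay of such messages, read 1843, 5912 and 9996 against 520, 748 and 2438, a change of -2.45 ± 0.45, with overlap between the groups. Zc3h12a, an RNase gene, changed by -0.56 ± 0.13 (limma adjusted p = 0.00522), while its second probe set (-0.20) did not pass. The rise was Auh, at 0.32 ± 0.11, a call lost under 26 settings.

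At their brightest probe sets none of the 12 mast cell markers passed by limma, and their summed signals were 318804 to 366640 on the IL3 arrays and 326596 to 368117 on the IL3+SCF arrays. Other probe sets of 3 of them passed: 1 of Tpsb2 at 0.91, 1 of Hdc at 0.78 and 1 of Ms4a2 at 0.15 (limma adjusted p = 1.12e-05, 0.0206 and 0.0367), all higher with SCF, and up to 2 of the 12 markers were called higher in an alternative setting. The sum over 14 monocyte and macrophage markers was 13170 to 17889 on the IL3 arrays and 4293 to 5323 on the IL3+SCF arrays, where of 7 tested genes 1 rose and 4 fell; C1qa, C1qc, Cd14, Marco and Mpeg1 were dim on all 12 arrays. The 4 that fell were Cx3cr1 (-3.90), Lyz1 (-1.96), Lyz2 (-1.59) and Fcgr1 (-1.32, dim on 5 IL3+SCF arrays), and the rise was Cd68 (1.28). The other 10 markers, left after those called lower on these arrays were taken out, summed to 1137 to 2222 against 1957 to 2417. Stromal marker sums were 1035 to 2239 against 598 to 1034, where 2 of 4 tested genes, Cxcl12 (-1.52) and Pdgfrb, fell. The other 7 stromal markers, left in the same way, summed to 164 to 574 against 325 to 678, with Acta2, Col3a1, Lum and Vcam1 dim on all 12. The neutrophil sum was 5474 and 6835 on IL3 replicates 3 and 6, at most 1094 on the other IL3 arrays, and 210 to 288 on the IL3+SCF arrays; Csf3r, Elane and Ltf were dim on all 12 arrays. Basophil sums were 49687 to 60673 against 53989 to 59201, with 2 of 7 tested genes higher and 1 lower. For eosinophils they were 1240 to 1837 against 1211 to 1701, with 1 of 3 higher and Epx dim on all 12 arrays. T and NK cell sums were 135 to 420 against 131 to 311, with the 1 tested gene lower and Cd3d, Cd3g, Cd4 and Ncr1 dim on all 12.

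Without IL3 replicates 3 and 6, the changes of the members that separated or nearly separated the groups were 1.43 for Csf1 1460220_a_at, 1.38 for Csf2, 1.14 for Pdgfa 1449187_at, -0.64 for Lif 1421207_at and -0.68 for Osm, and all 5 passed (limma, highest adjusted p = 0.0143, for Osm). For Csf2, kept through the IL3+SCF arrays alone, that call is a description. Cx3cr1, Lyz1, Lyz2, Fcgr1, Cxcl12 and Pdgfrb were lower on the IL3+SCF arrays, as were Lif, Osm, Lifr and Il6st. Cd68 rose by 1.28. The 10 monocyte and macrophage markers not called lower, Cd68 among them, summed to 1137 to 2222 on the IL3 arrays against 1957 to 2417. The mean of Cd68 alone went from 492 to 1225. The 7 stromal markers not called lower summed to 164 to 574 against 325 to 678. Both remainders were formed by taking out the markers called lower on these same arrays. That they did not fall was thus partly set by this choice, and their sums are no test of cell content. The part of any monocyte, macrophage or stromal RNA in the changes of Lif, Osm, Lifr and Il6st was not tested.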

How the data were processed

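The authors deposited 1 table of linear intensities, 1 value per probe set and array. The submitters' processing notes name GCOS 1.4. How background was corrected and to which target arrays were scaled is not given in the sources used here. All 12 trimmed array means were 1250.01, which shows scaling to one level, and intensities were used without further scaling because array medians differed by at most 0.43 log2 units (limit 0.5). Per the labels, targets were amplified from total RNA with a whole-transcript kit. The array number limits the precision.

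Of 45101 probe sets, 64 were controls; of the others 34945 had 1 gene symbol, 932 several and 9160 none. Entrez identifiers of 34754 matched RefSeq, with 0 differences in symbol. Probe sets above the array's own 40th percentile on 6 or more arrays were kept. Signals were tested as log2(signal + 16), which understates changes of dim genes, with lmFit and eBayes from limma 3.58.1, run in R 4.3.3 (no covariates, two-sided, Benjamini-Hochberg, threshold 0.05). Gene counts use the brightest kept probe set of each gene. Differences between probe sets or members used exact permutation tests over the 12 arrays, adjusted over 7 and 4 pairs. The fit was tested on simulated data. Deviations of same-numbered replicates correlated at 0.31 for replicates 4 and 6 and at -0.24 to -0.01 for the other numbers. The numbers were not used as pairs in the main fit, and a fit with them as a block is given below. Lists were described by counts and medians. From each list at most 2 risen and 2 fallen genes with the largest change were named, and for each member the 3 genes most correlated within groups; Adam17, Il6st, and the unmoved and dim receptors, ligands and regulators were named after their values were seen. The members and lists were chosen with earlier results of these data known. Motifs and sequences come from RefSeq promoters of GRCm38.p6. Figures used matplotlib 3.10.9 in Python 3.11.15.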

Additional observations from a re-analysis of the deposited data

Results flagged for a closer look

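In 30 groups of 6 arrays (each growth factor probe set in each group), 2 arrays stood apart from the rest of their group, with a gap to the nearest array, divided by the range on the log2 scale, above Dixon's 95% critical value of 0.625. Chance alone exceeds that value in about 1 of 20 groups. For Lif 1421207_at, IL3 replicate 1 was the lowest at 15928, where the next IL3 array read 19504 and the highest 21399 (gap over range 0.686). For Lif 1450160_at, IL3 replicate 5 was the lowest at 149, where the next read 632 and the highest 1330 (0.652).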

How the results depend on the processing

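The 4 Csf1 and 2 Pdgfa probe sets, Lif 1421207_at and Osm kept their direction and call in all 37 alternative settings (scaling, constant, filter, array weights, replicate block, arrays left out). Csf2 was called higher in the 30 in which it was tested. Apart from the setting with no filter, it was tested only where enough IL3+SCF arrays passed the filter, so these calls are a description. Calls were lost for Vegfa 1420909_at in 3 of 37, Vegfb in 14, Tgfb1 1420653_at in 16 and Tgfb1 1445360_at in 2; Lif 1450160_at passed in 5 and Vegfa 1451959_a_at in 2. Filters lowered to 5 or 4 arrays when arrays were left out were added after seeing the data. Centring each array on its median gave 1366 genes higher and 1401 lower, against 2156 and 1895 as reported, and 3366 probe sets higher and 3023 lower. Without IL3 replicates 3 and 6, 2 growth factor probe sets fell, also with the filter at 4 arrays. With the replicate number as a block, 3616 probe sets rose and 2993 fell, and Vegfb and Tgfb1 1420653_at lost their calls (limma adjusted p = 0.0748 and 0.0824). With a constant of 64, the differences between probe sets passed for Csf1 1425155_x_at (-0.47) and Pdgfa (-0.31), and Csf1 minus Csf2 (0.48) passed; with 1 it was -0.24. With 1 array left out at a time, the pair differences ranged from -0.47 to -0.33 for Csf1 1425155_x_at, -0.32 to -0.21 for Pdgfa, -0.53 to 0.073 for Lif, -0.12 to 0.15 for Vegfa and -0.10 to 0.094 for Csf1 minus Csf2. Without IL3 replicates 4 and 5 the Lif pair differed by -0.46, and without 3 and 6 the Lif and Vegfa pairs by 0.17 and -0.036. The cause of these shifts was not tested. Signals near background limit what can be said of Csf2, and no length-corrected scale exists to compare levels between probe sets.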
